A study of Mus musculus with 4 samples.

Results

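The 44 genes described here drive or mark cell division: cyclins and their kinases, CDC25 phosphatases, replication proteins, spindle and kinetochore proteins, and the transcription factors *Foxm1* and *E2f1*. They were taken as a list by symbol, and all 44 were found among the 22367 protein-coding genes of the mm9 annotation, on 17 chromosomes. Their nuclear position was measured by DamID in cultured primary hepatocytes of wild-type (WT) mice and of mice without *Tm7sf2* (KO), all C57BL/6 and 12 to 16 weeks old. *Tm7sf2* encodes NET47, a sterol reductase of the endoplasmic reticulum and the nuclear envelope (NE). For each genotype, cells were transduced with a lentivirus for 24 h, to express either Dam methylase fused to lamin B1 or Dam methylase alone as a control for accessibility, and the DNA was collected 60 h after transduction. Both genotypes were kept in serum-free medium with dexamethasone, insulin and EGF. Each of the 4 libraries held the pooled DNA of 4 mice, so there was 1 library pair per genotype. The comparison therefore has no error between animals and no test, and genes are not replicates of a genotype. The lists used here give the borders of lamina-associated domains (LADs) without a signal, so a call does not tell how many cells held a gene at the NE.

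Dam methylase marks GATC sites, and its fusion to lamin B1 marks those close to the nuclear lamina. LADs are mostly poor in active genes, and genes that many cell types use usually lie outside them. The hepatocytes of an adult liver rarely divide, but they re-enter the cell cycle after loss of liver tissue. In a dividing cell, D cyclins with CDK4 or CDK6 and E cyclins with CDK2 lead to S phase, the MCM complex opens the DNA at origins, and cyclins A and B with CDK1 lead through mitosis. Many of these genes are held off in resting cells by repressor complexes on their promoters and are transcribed together when a cell divides.

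A LAD stretch found in only the WT or only the KO list, and at least 10 kb long, is called a differential region (DR). A gene whose span overlapped a KO-only DR was called IP (interior in WT, periphery in KO), and a gene that overlapped a WT-only DR was called PI. A gene that overlapped both kinds was AMB (ambiguous). The other genes were PP when a LAD of each genotype overlapped them, and II otherwise, which is the interior class. Of the 12654 II genes, 83 were touched by a KO LAD and 53 by a WT LAD outside any DR, none of them a member.

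Most of the cell cycle genes were outside LADs in both genotypes. Of the 44 genes, 31 were II (70.5%, against 56.6% of all protein-coding genes) and had no base in a LAD of either genotype. A further 12 were IP (27.3%, against 17.1% of all genes), and 1, *Cenpf*, was AMB (2.96% of all genes). No member was PI, a class that held 5.43% of all genes, and none was PP, which held 17.9%. These absences depended on the settings, since *Cenpf* was PI with DRs or with LADs of at least 20 kb, and *Cenpe*, *Mad2l1* and *Cenpf* were PP under some settings. A WT LAD touched 3 members, *Mad2l1*, *Cenpe* and *Cenpf* (6.82%, against 30.4% of all genes). None had its transcription start in a WT LAD, whereas 22.7% of all genes did. In the KO, the transcription start of 7 members lay in a LAD (15.9%, against 32.8% of all genes), and these were *Ccna2*, *Foxm1*, *Mcm3*, *Rrm1*, *Mad2l1*, *Cenpe* and *Anln*.

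**Figure D1:**
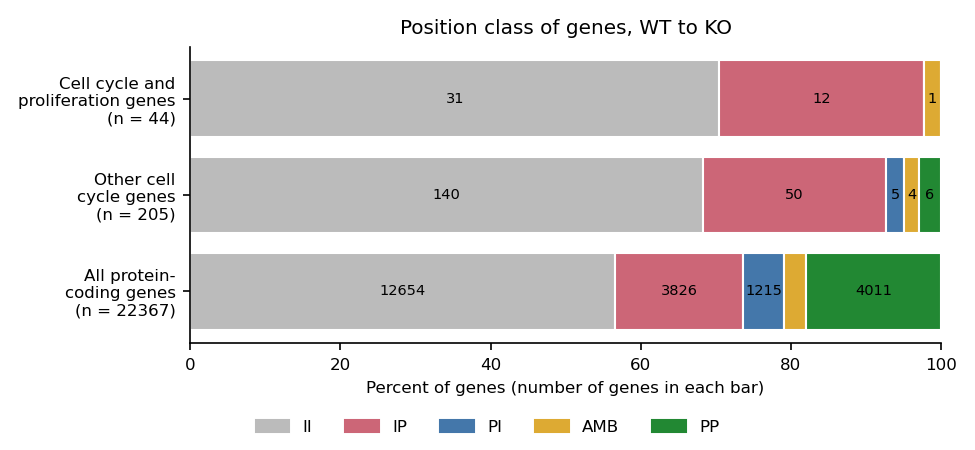
Percent of genes in each position class (x axis) for the 44 cell cycle and proliferation genes, 205 other cell cycle genes and all 22367 protein-coding genes, with the number of genes written in the bars where it has room. The 44 genes fill only the classes II (31), IP (12) and AMB (1).

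A gene wholly within a WT LAD cannot be IP, and few cell cycle genes were touched by a WT LAD at all. Among genes that no WT LAD touched, 10 of 41 members were IP (24.4%), beside 19.03% of all such genes. A longer span can also meet more DRs. The members had a median length of 14.8 kb against 15.4 kb for all genes, and of all genes within their length range (4.15 to 179.3 kb) 19.3% were IP. The difference between the members and all genes depended on how long a DR had to be. With DRs of at least 20 kb, 5 members were IP (11.4%), beside 11.1% of all genes, and with LADs of at least 20 kb, 7 members were IP (15.9%), beside 13.4%. When 50% or more of a gene had to lie in a DR, 10 members were IP (22.7%), beside 7.54% of all genes.

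The 12 IP genes and *Cenpf* came from every role in the list except the CDC25 phosphatases. The LADs around each of them are drawn in the plot of positions relative to the start.

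**Figure D2:**
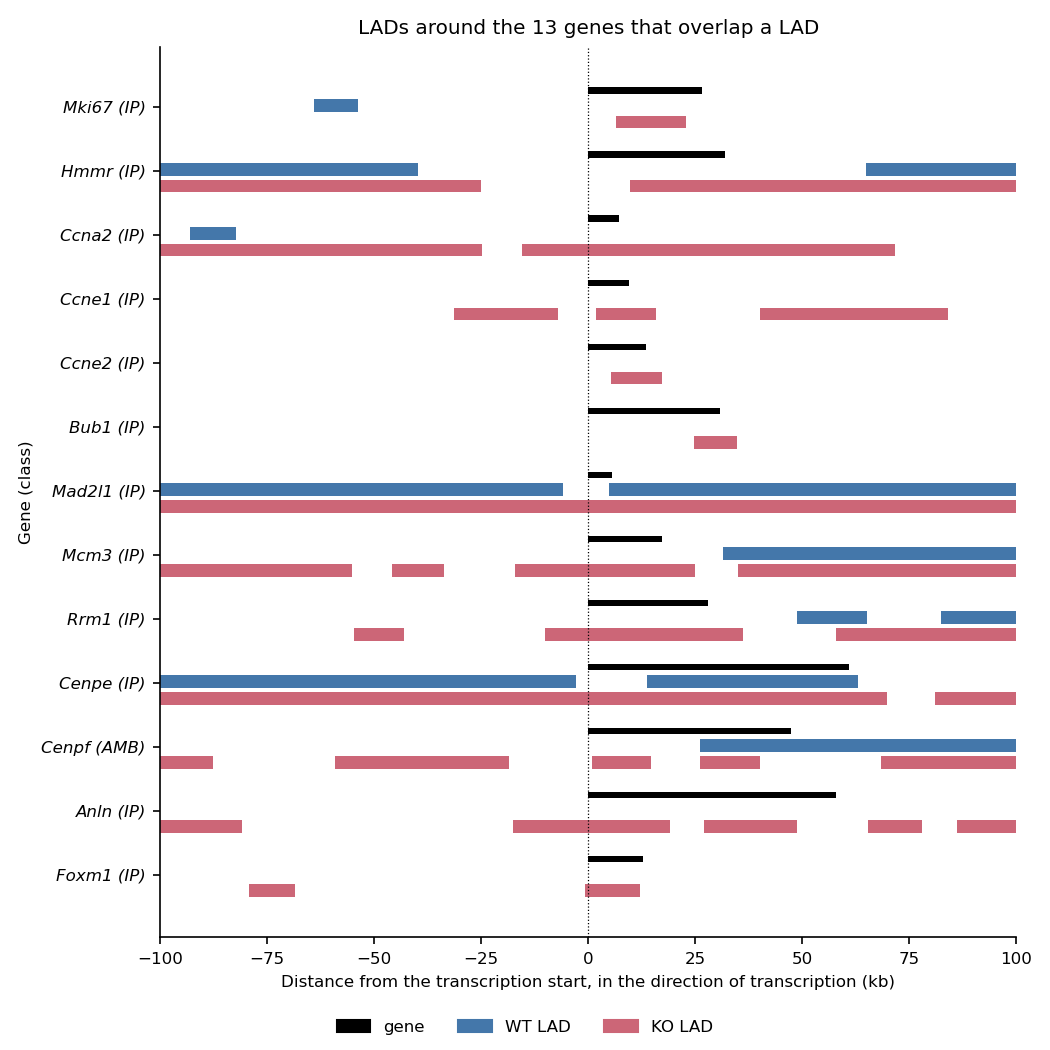
WT LADs (blue) and KO LADs (red) within 100 kb of the transcription start of the 13 genes that overlap a LAD, with the gene itself in black and distance in kb along the direction of transcription. KO LADs cover the start of 7 genes, and the WT LADs upstream of *Mad2l1* and *Cenpe* end within 6 kb of the start.

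*Mki67*, whose protein Ki-67 coats mitotic chromosomes and marks dividing cells, lies on the minus strand at chr7:142881471-142908062. It had no base in a WT LAD, and 61.3% of its span lay in a KO LAD, which was a KO-only DR over its whole length (chr7:142885239-142901543, 16.3 kb). That LAD held exons 5 to 12 of 14, began 6.52 kb downstream of the transcription start and lay 60.3 kb from the nearest WT LAD. *Hmmr*, which encodes the spindle-binding hyaluronan receptor RHAMM, lies on the minus strand at chr11:40514890-40546939. Here 69.4% of the span, with exons 5 to 21 of 21, lay in a KO-only DR of 55.2 kb (chr11:40481945-40537128). This DR was not a separate domain but the edge of a KO LAD of 403.6 kb, and it also held all of *Mat2b*, which encodes a subunit of methionine adenosyltransferase. In WT the nearest LAD was 32.9 kb from *Hmmr*. The start of neither gene was in a LAD. With DRs or with LADs of at least 20 kb, *Mki67* was II and *Hmmr* was IP.

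The borders of these DRs show the resolution of the method, which reads GATC sites, and nearly all LAD borders lay at such a site. The DR in *Mki67* spanned 45 GATC sites and the DR at *Hmmr* 142. The sequences at their borders are printed from the mm9 plus strand, with the GATC site at the border in capitals, for chr7:142885216-142885259, chr7:142901521-142901564, chr11:40481922-40481965 and chr11:40537106-40537149 in this order.
Mki67 lower border: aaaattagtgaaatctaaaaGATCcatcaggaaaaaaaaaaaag
Mki67 upper border: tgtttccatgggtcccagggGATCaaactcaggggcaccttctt
Hmmr lower border: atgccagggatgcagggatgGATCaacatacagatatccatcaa
Hmmr upper border: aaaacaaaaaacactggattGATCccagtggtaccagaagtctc

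Among the mitotic cyclins and their kinase, *Ccna2* (cyclin A2, minus strand, chr3:36463788-36471072) was IP over its whole span. It lay in a KO LAD of 87.2 kb (chr3:36399338-36486530) that overlapped no WT LAD, the longest DR at any member, together with all of *Exosc9*, which encodes an exosome subunit, and 77.0% of *Bbs7*, a BBSome subunit. *Ccnb1*, *Ccnb2* (cyclins B1 and B2) and *Cdk1* were II. The nearest KO LAD was 59.9 kb from *Ccnb1*, 24.8 kb from *Cdk1* and 660.5 kb from *Ccnb2*.

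Of the 8 cyclins and kinases of G1 and S phase, the E cyclins were IP and the other 6 were II. *Ccne1* (minus strand, chr7:38883003-38892553) had 81.0% of its span in a KO-only DR of 14.0 kb (chr7:38876776-38890738), with exons 5 to 12 of 12. *Ccne2* (plus strand, chr4:11118498-11131926) had 61.0% in a KO-only DR of 12.04 kb (chr4:11123736-11135776), with exons 7 to 12 of 12, and this DR also held 17.2% of *Ints8*, which encodes an Integrator subunit. Both DRs were whole KO LADs, 163.5 kb and 329.7 kb from the nearest WT LAD, and both left the transcription start outside, by 1.81 kb and 5.24 kb. When DRs or LADs had to be at least 20 kb long, neither E cyclin was IP and all 8 genes were II. The D cyclins differed in their surroundings. *Ccnd2* lay 15.2 kb from a WT LAD and 7.55 kb from a KO LAD, whereas *Ccnd1* lay 2086 kb and 307.6 kb away and *Ccnd3* 686.2 kb and 55.5 kb. *Cdk4*, a partner of the D cyclins, was 173.8 kb from a WT LAD and 161.4 kb from a KO LAD.

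Of the 9 replication genes, 2 lay wholly in KO-only DRs. *Mcm3*, a subunit of the replicative helicase (minus strand, chr1:20793055-20810359), lay in a KO LAD of 42.0 kb (chr1:20785439-20827451) that came within 6.59 kb of a WT LAD. *Rrm1*, the large subunit of ribonucleotide reductase (plus strand, chr7:109590209-109618285), lay in a KO LAD of 46.4 kb (chr7:109580030-109626418) at 12.5 kb from a WT LAD, with all of *Olfr543*, an olfactory receptor gene, and 10.02% of *Stim1*, a calcium sensor gene. *Rrm2*, the small subunit, was II and lay farther from a KO LAD (72.9 kb) than from a WT LAD (60.4 kb). The other 5 MCM genes, *Mcm2*, *Mcm4*, *Mcm5*, *Mcm6* and *Mcm7*, were II. Of them, *Mcm5* and *Mcm4* were the II members nearest to a KO LAD, at 4.51 kb and 4.59 kb, against 13.6 kb and 50.4 kb from a WT LAD. *Pcna*, the sliding clamp, was 59.2 kb from a WT LAD and 93.9 kb from a KO LAD.

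Of the 7 mitotic kinase and spindle checkpoint genes, *Bub1* and *Mad2l1* were IP. *Bub1*, a checkpoint kinase (minus strand, chr2:127626858-127657601), had 19.5% of its span, exons 19 to 25 of 25, in a KO LAD of 10.1 kb (chr2:127622713-127632843). The nearest WT LAD was 1290 kb away from that LAD. *Bub1* was II with DRs or with LADs of at least 20 kb. It was also II when 50% or more of the gene had to lie in a DR. *Mad2l1*, the checkpoint protein MAD2 (plus strand, chr6:66485384-66491027), sat in a gap between WT LADs. In WT a LAD reached 12.9% of the gene from its 3′ end, with exon 5 of 5, and in the KO a LAD of 644.0 kb ran across the whole gene. The gap itself was the KO-only DR (chr6:66479428-66490298, 10.9 kb, 20 GATC sites) and held 87.1% of the gene with its start. *Mad2l1* was PP with DRs of at least 20 kb or with gaps of up to 50 kb between LADs closed. *Plk1*, *Aurka*, *Aurkb*, *Bub1b* and *Cdc20* were II. *Aurka* was 34.1 kb from a WT LAD and 5.63 kb from a KO LAD. *Plk1* lay farther from a KO LAD (86.9 kb) than from a WT LAD (44.8 kb).

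The 9 spindle, kinetochore and cytokinesis genes held 3 IP genes, *Hmmr*, *Cenpe* and *Anln*, and the AMB gene. *Cenpe*, a kinetochore motor (plus strand, chr3:134875527-134936504), had 77.4% of its span, exons 13 to 46 of 46, in LADs of both genotypes. Its first 12 exons and its start lay in a KO-only DR of 16.7 kb (chr3:134872608-134889317), inside a KO LAD of 174.5 kb. *Cenpe* was PP with DRs of at least 20 kb or with gaps of up to 50 kb between LADs closed. It was also PP when 50% or more of the gene had to lie in a DR. *Anln*, the actin-binding protein anillin (minus strand, chr9:22135658-22193650), overlapped 2 separate KO LADs, of 36.5 kb at its start (chr9:22174613-22211143) and of 21.7 kb farther in (chr9:22144799-22166532). Together they covered 70.3% of the gene, at 108.3 kb and 152.9 kb from the nearest WT LAD. In *Cenpf*, a kinetochore protein gene (minus strand, chr1:191464478-191511965), the LAD pattern was shifted. A KO-only DR (chr1:191497284-191511062, 13.8 kb) held exons 2 to 7 of 18 and 29.0% of the span, exons 12 to 16 were in LADs of both genotypes, and a WT-only DR (chr1:191443466-191471910, 28.4 kb) held exons 17 and 18 and 15.7% of the span. *Kif11*, *Kif20a*, *Kif23*, *Tpx2* and *Birc5* were II.

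*Foxm1*, which activates genes of mitosis (plus strand, chr6:128312985-128325911), had 94.2% of its span and its start in a KO LAD of 12.98 kb (chr6:128312182-128325162). The LAD lay 320.7 kb from the nearest WT LAD and also held 12.7% of *5930416I19Rik*. *Foxm1* was II with DRs or with LADs of at least 20 kb. *E2f1*, which activates genes of S phase, was II at 421.8 kb from a WT LAD and 445.5 kb from a KO LAD. *Cdc25a*, *Cdc25b* and *Cdc25c*, whose phosphatases switch on CDKs, were II, at 82.2 kb, 53.4 kb and 167.3 kb from a KO LAD. *Top2a*, the topoisomerase of mitotic chromosomes, was II at 152.1 kb.

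The KO-only DRs at these 13 genes numbered 14 and were short, with a median of 16.5 kb (10.1 to 87.2 kb) beside 18.05 kb over all 8208 KO-only DRs, and with a median of 39.5 GATC sites (20 to 225). Of them, 11 were whole KO LADs, 1 was an edge and 2 filled a gap between WT LADs. Over all KO-only DRs, 52.2% were whole KO LADs. No pair of members shared a DR. In 5 of the 12 IP genes (*Mki67*, *Hmmr*, *Ccne1*, *Ccne2* and *Bub1*) the DR covered part of the gene downstream of its start and not the start itself. The start lay in a KO LAD for 7 of the 12 IP members (58.3%) and for 65.4% of all IP genes.

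The promoters of the members whose start lay in a KO LAD were searched because these regulatory sequences lay outside the WT LADs and inside the KO LADs. Of those available, only the ones with a match to a searched site are printed. The RefSeq table (GRCm38.p6) holds promoters of 34 of the 44 members, and of 5 of these 7 genes, which are *Mad2l1*, *Mcm3*, *Rrm1*, *Cenpe* and *Anln*. Each was found in mm9 by its sequence, and all 300 bases of each lay in a KO-only DR. The 250 bases before the RefSeq start were searched on both strands for the CCAAT box (CCAAT), the cell cycle gene homology region or CHR (TTTGAA, with its variant TTCGAA) and the E2F site (TTCCCGC, with its variants TTGGCGC plus TTCGCGC plus TTGCCGC). On opposite strands, a CCAAT box and a TTGGCGC site can share bases. The sequences of *Mcm3* (chr1:20810394-20810643, minus strand), *Rrm1* (chr7:109589959-109590208, plus strand) and *Cenpe* (chr3:134875277-134875526, plus strand) are given in mm9 positions, 5′ to 3′, with the matches in capitals.
Mcm3: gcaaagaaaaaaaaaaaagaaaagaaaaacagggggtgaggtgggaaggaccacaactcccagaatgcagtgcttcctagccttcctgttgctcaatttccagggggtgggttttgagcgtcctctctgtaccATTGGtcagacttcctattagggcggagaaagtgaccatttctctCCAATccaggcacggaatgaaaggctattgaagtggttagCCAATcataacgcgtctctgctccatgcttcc
Rrm1: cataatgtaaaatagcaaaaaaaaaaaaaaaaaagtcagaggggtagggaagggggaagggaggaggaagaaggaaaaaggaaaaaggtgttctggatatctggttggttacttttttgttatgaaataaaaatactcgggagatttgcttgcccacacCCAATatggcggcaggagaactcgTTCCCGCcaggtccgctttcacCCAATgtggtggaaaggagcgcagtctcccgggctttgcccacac
Cenpe: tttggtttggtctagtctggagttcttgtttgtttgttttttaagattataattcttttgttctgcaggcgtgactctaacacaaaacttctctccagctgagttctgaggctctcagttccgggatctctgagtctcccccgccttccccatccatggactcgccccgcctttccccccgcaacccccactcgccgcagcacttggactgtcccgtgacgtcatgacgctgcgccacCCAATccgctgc

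*Mcm3* held 3 CCAAT boxes, *Rrm1* 2 CCAAT boxes and 1 E2F site, and *Cenpe* 1 CCAAT box. None of the searched letters was in the windows of *Mad2l1* and *Anln*. Each gene was counted by its first promoter window in the table alone. A CCAAT box was present for 76.5% of the 34 members and for 34.5% of all 27025 genes. An E2F site was present for 32.4% and 7.97%, and a CHR for 26.5% and 17.4%. Among the 9 IP members with a promoter in the table, 6 held a CCAAT box, 3 an E2F site and 1, *Mki67*, a CHR. Among the 24 II members, counted in the same way, 19 held a CCAAT box, 8 an E2F site and 8 a CHR. *Ccnd3* was counted without a CCAAT box, although its other window held 1. These matches describe the sequence and are no evidence of binding.

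The distance from the genes to the nearest LAD was shorter in the KO for most members. The median distance was 171.7 kb to a WT LAD and 57.2 kb to a KO LAD, against 95.0 kb and 13.3 kb over all protein-coding genes. The nearest LAD was closer in the KO for 34 members (77.3%, against 60.4% of all genes), farther for 7 and equally far for 3, the genes that WT LADs touched. Genes that LADs of both genotypes touched count as equally far, and these made up most of the 28.3% of all genes without a difference. Among genes that no WT LAD touched, the nearest LAD was closer in the KO for 34 of 41 members (82.9%), below the 86.8% of all such genes, and the median distances were 216.1 kb and 59.9 kb for the members and 306.7 kb and 71.6 kb for all such genes. The KO list holds more LADs than the WT list (16076 against 8107) over a like share of the genome (56.1% and 55.4%). The difference in distance depended on the length of the LADs counted. With LADs of at least 20 kb, the median distance of the members was 245.6 kb in WT and 88.0 kb in the KO. That of all genes was 151.4 kb in WT and 47.9 kb in the KO. The nearest LAD was then closer in the KO for 32 members (72.7%) and farther for 10 (22.7%), beside 55.7% and 18.4% of all genes. With LADs of at least 50 kb, the median distance of the members was 307.1 kb in WT and 343.3 kb in the KO, whereas that of all genes was 258.7 kb in WT and 204.8 kb in the KO. At this length the nearest LAD was closer in the KO for 22 members and farther for 20 (45.5%), beside 39.9% and 37.7% of all genes.

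Of the 31 II genes, 24 lay closer to a KO LAD than to a WT LAD (77.4%, below the 83.4% of all II genes). The 5 nearest to a KO LAD were *Mcm5*, *Mcm4*, *Aurka*, *Ccnd2* and *Cdk6*, the last a G1 kinase gene at 9.68 kb from a KO LAD and 154.0 kb from a WT LAD. The 5 farthest were *Ccnb2* (660.5 kb), *Tpx2*, a spindle assembly factor (623.4 kb), *E2f1* (445.5 kb), *Kif11*, the motor that separates spindle poles (326.5 kb), and *Cdk2* (322.4 kb). In WT, *Ccnb2* lay 1171 kb, *Tpx2* 1107 kb, *Kif11* 874.6 kb and *Cdk2* 294.2 kb from a LAD. Of these 5 genes, *E2f1* and *Cdk2* were farther from a LAD in the KO than in WT.

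**Figure D3:**
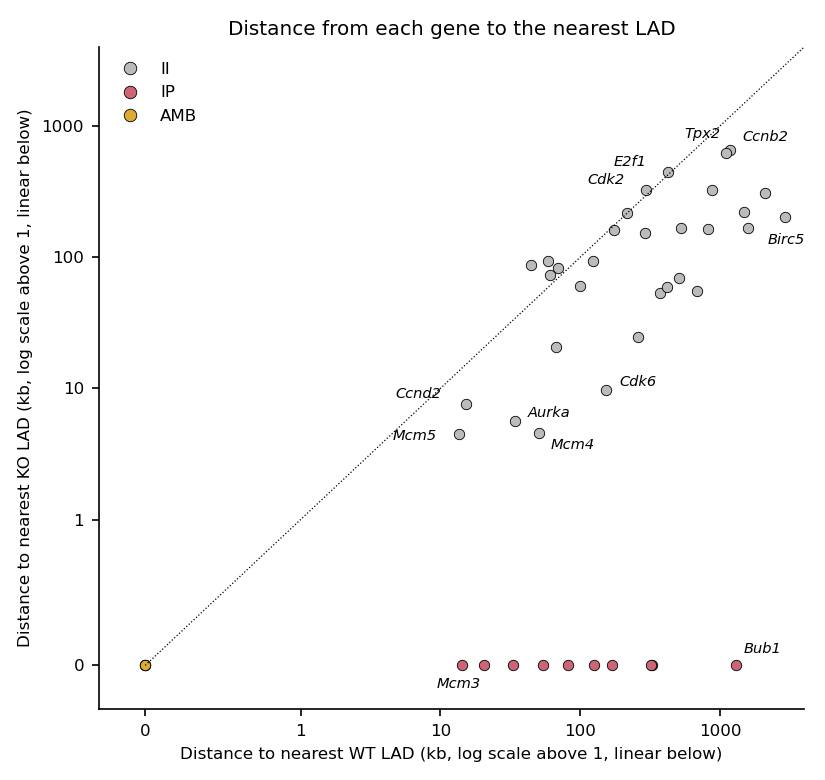
Distance in kb from each of the 44 genes to the nearest WT LAD (x axis) and KO LAD (y axis), on log scales above 1 kb and linear below, with equal distances on the dotted line. Points below the line (34 genes) were closer to a LAD in the KO, 10 IP genes lie at 0 on the y axis alone, and *Mad2l1*, *Cenpe* and *Cenpf* share the point at 0 on both axes.

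The surroundings of the genes were then measured as the share of the 1 Mb centered on the transcription start that lay in LADs. The median over the members was 19.2% in WT and 25.2% in the KO, beside 23.3% and 28.8% over all genes. The share was higher in the KO for 32 members (72.7%, against 62.98% of all genes), lower for 10 and equal for 2, *Ccnb2* and *Tpx2*, which had no LAD within this window in either genotype. The median difference, KO minus WT, was 4.12 percentage points for the members and 2.29 for all genes. Among genes that no WT LAD touched, the members were close to all genes, with a higher share in the KO for 73.2% and 72.2% and median differences of 3.71 and 3.10 points. *Ccna2* had the largest difference, from 20.6% in WT to 61.7% in the KO. *Bub1b*, a checkpoint gene, had no LAD in this window in WT and 22.8% in the KO, and *Ccnd2* differed by 22.2 points (56.8% and 79.0%). The largest differences in the other direction were at *Cdc25a*, with 32.0% in WT and 17.9% in the KO, and *Plk1*, with 42.5% and 30.0%. At *Mki67* the window held 34.7% in both genotypes, and at *Hmmr* 88.7% and 91.8%. The equal share at *Mki67* was particular to this window. A 2 Mb window there held 39.8% in WT and 27.5% in the KO, and a 200 kb window 5.15% and 8.15%. By role, the share was higher in the KO for 8 of 9 DNA replication genes, 8 of 9 spindle, kinetochore and cytokinesis genes, 7 of 8 G1 and S phase cyclins and CDKs, 3 of 7 mitotic kinase and checkpoint genes, 2 of 4 mitotic cyclins and *Cdk1*, 2 of 3 CDC25 phosphatases, 1 of 2 mitotic chromosome proteins and 1 of 2 transcription factors.

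**Figure D4:**
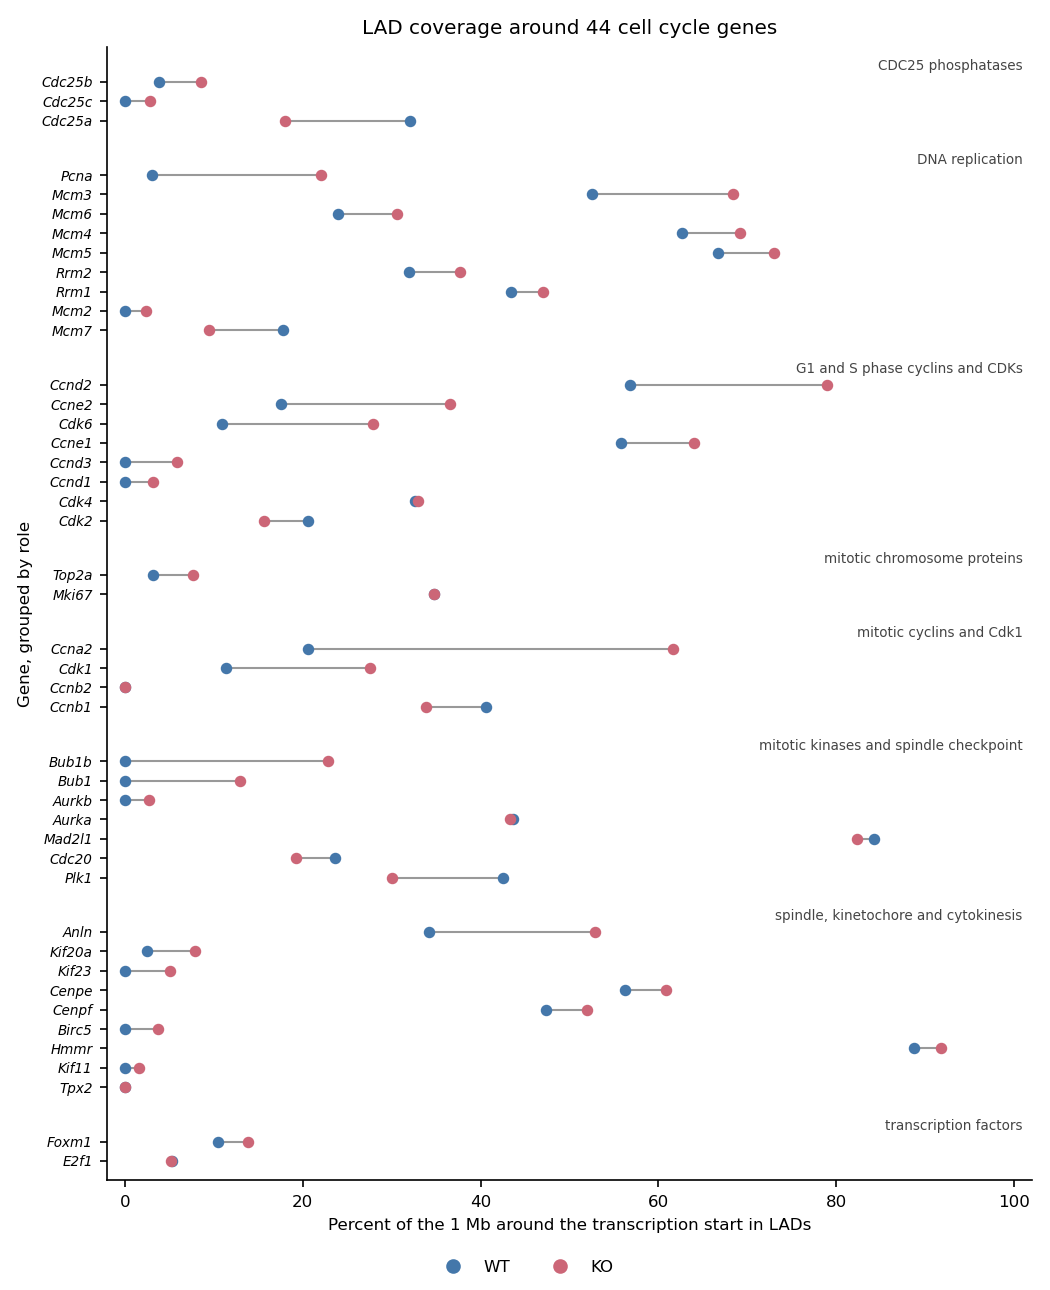
Percent of the 1 Mb around the transcription start in LADs (x axis) for each of the 44 genes in WT (blue) and KO (red), joined by a line and grouped by role. *Ccna2* shows the widest line, from 20.6% to 61.7%, and *Cdc25a* the widest in the other direction.

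A wider list of 205 other cell cycle genes, which were longer than the members (median 28.1 kb, against 15.4 kb for all genes), gave 140 II genes, 50 IP genes (24.4%, against the 17.1% of all genes), 5 PI, 6 PP and 4 AMB. Among those that no WT LAD touched, 35 of 175 were IP (20.0%, beside 19.03% of all such genes). IP genes made up 8 of 19 cohesin and condensin genes, 6 of 19 genes of pocket proteins, E2F factors and the MuvB complex, 6 of 26 kinetochore and checkpoint genes, 5 of 22 origin genes, 6 of 26 genes of replication polymerases and their partners, 6 of 25 spindle and cytokinesis genes, 4 of 24 genes of the ubiquitin ligases APC/C and SCF, 2 of 10 CDK inhibitor genes and 1 of 12 genes of other cyclins and CDKs. Among those that KO-only DRs covered most fully were *Cdkn2b* (the CDK inhibitor p15), *Fbxo5* (an APC/C inhibitor), *Gins1* (a helicase cofactor), *Spc24* (a kinetochore subunit) and *Plk4* (the kinase of centriole duplication), at 100% each, and *Mcm8* (99.7%), *Sgol2* (83.8%), *Kif4* (83.6%) and *Haus6* (74.9%).

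The PI genes of the wider list were *E2f7*, a repressor of E2F targets, with 15.3% of its span in WT-only DRs, *Anapc10* (27.3%) and *Pttg1* (30.6%), both of the machinery that times chromatid separation, the DNA ligase gene *Lig1* (29.7%) and the kinesin gene *Kif20b* (27.0%). The PP genes were *Ccna1*, the A cyclin of the male germ line, *Ccnb3*, *Nuf2*, *Aspm*, *Chek1* and the growth factor gene *Hgf*. *Ccna1* lay wholly in LADs of both genotypes, whereas *Ccna2* lay in a LAD of the KO and in none of the WT. The AMB genes were *Ccnh*, *Pola1*, *Ncapg2* and *Kif18a*.

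The lists hold positions and no expression, so neither the cell type nor the loss of *Tm7sf2* can be checked from them. *Tm7sf2* itself (chr19:6062821-6068373) was II, at 1629 kb from a WT LAD and 906.7 kb from a KO LAD. Of 12 genes of hepatocyte products and regulators, such as *Alb* and *Hnf4a*, 11 were II and *Cps1* was PI. Of 16 marker genes of other liver cells, *Emr1* was PI, *Stab2* and *Epcam* were IP, *Marco* and *Reln* were AMB, *Kdr* and *Lrat* were PP, and the other 9 were II.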

How the data were processed

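The authors aligned reads to mm9. For each *DpnI* fragment they took log2 of the LaminB1-Dam signal over the Dam signal, and DNAcopy (circular binary segmentation, default parameters) gave the LADs. The submitters' processing notes name BWA and limma, without a version. The deposited lists hold LAD and DR positions and no read counts, so depth is not given in them and no interval for counting error could be made. The KO had fewer usable reads than the WT. The lists were read as BED positions, and subtracting the LAD lists returned the deposited DRs with 0 differences. A GATC site lay at 98.9% of WT and 99.5% of KO LAD borders.

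Genes were those of GENCODE on NCBIM37, the mm9 assembly, and 1 overlapping base sufficed for a class. Exons and positions are 1-based, and exons are numbered from the 5′ end. Of the 205 other cell cycle genes, 1 was found under an older symbol. Named were all members outside class II, those with the start in a LAD, the 5 II members nearest to and farthest from a KO LAD, and of the other genes all PI, PP and AMB genes and the 10 IP genes with the highest share in KO-only DRs, of which 1 is not reported here. Other members are named to describe their role or the 1 Mb windows, chosen after their values were seen. The members, lists and alternatives were chosen with earlier results of these data known. Intervals were computed with Python 3.11.15 and scipy 1.17.1, sequences with pysam 0.24.0 and samtools 1.23.1, while matplotlib 3.10.9 drew the figures. Overlaps, distances and classes were first tested on simulated data. No test between genotypes was made.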

Additional observations from a re-analysis of the deposited data

How the results depend on the processing

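The 12 IP and 31 II members and the 3 touched by a WT LAD stayed within a factor of 1.5 in all settings but the following. With the transcription start alone, 7 members (15.9%) and 11.99% of all genes were IP, and 0 members were touched by a WT LAD. With 100 kb centered on the gene, 9 were touched by a WT LAD and 27.1% of all genes were IP, beside 17 members (38.6%), a count within the factor. In this setting *Ccnd2*, *Cdk1*, *Mcm4*, *Mcm5* and *Mcm6* were also IP, and *Aurka* was AMB. With DRs of at least 20 kb, 5 members and 11.1% of all genes were IP, and with LADs of at least 20 kb, 7 members (15.9%) and 13.4% of all genes. Under both, *Cenpf* was PI. When 50% or more of a gene had to lie in a DR, 7.54% of all genes were IP. The median distance to a KO LAD was 88.0 kb with LADs of at least 20 kb and 343.3 kb with LADs of at least 50 kb, and that to a WT LAD was 307.1 kb with the latter. In 200 kb windows the median LAD share of the members was 0% in WT and 7.63% in the KO, beside 0% and 16.03% over all genes. The members closer to a LAD in the KO numbered 34, and 32 and 22 with LADs of at least 20 kb and 50 kb, settings chosen for this count after seeing the data. Without LADs under 20 kb, the share in KO-only DRs was 0% for *Mki67*, *Ccne1*, *Ccne2*, *Bub1*, *Foxm1* and *Cenpf*. With gaps of up to 50 kb closed, the share was 0% for *Mad2l1* and *Cenpe*, which were then PP, and 55.2% for *Cenpf*, which was then IP, as was *Mcm4*. *Cenpe* was also PP with DRs of at least 20 kb, as was *Mad2l1*, and when 50% or more of the gene had to lie in a DR, as was *Cenpf*. The calls of the first group thus rest on LADs under 20 kb, and those of *Mad2l1* and *Cenpe* on short gaps between WT LADs. With 1 pooled library pair per genotype and a shallower KO, the depth at which LADs were called cannot be told apart from the genotype. No paired analysis was possible because each genotype has 1 library pair.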

Other observations

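Of 10 DNA damage checkpoint genes, 5 were IP, beside 17.1% of all genes, and *Chek1* was PP, as were 17.9% of all genes. These 10 genes were long, with a median of 34.4 kb against 15.4 kb for all genes, and a longer span can meet more DRs. KO-only DRs covered at most 47.1% of any of them. None of them was thus IP when 50% or more of a gene had to lie in a DR, beside 7.54% of all genes. Of 12 genes of growth factor signals for hepatocyte division, 10 were II, beside 56.6% of all genes, 1 was IP, and *Hgf*, which encodes hepatocyte growth factor, lay wholly in LADs of both genotypes.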
